A study of Mus musculus with 6 samples.

Results

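The Sprouty and Spred genes encode feedback inhibitors of RAS signaling. The members described here are *Spry1*, *Spry2*, *Spry4*, *Spred1*, *Spred2* and *Spred3*, which are 6 of the 56923 genes in the deposited count table. They were chosen by name. The gene table of the study names 5 of the 6, and *Spred3* was matched by its identifier in the GENCODE M39 annotation. All 6 passed the filter on low counts, as did 17212 genes in all. *Spry3*, the remaining Sprouty paralog, had no match under that name.

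mRNA-Seq was performed on the left ventricles (LVs) of 12-week-old mice, 3 WT and 3 *Lztr1* R409C/+, each giving 1 library. The labels call the tissue heart. Both groups were male mice on a C57BL/6J background, perfused with phosphate-buffered saline before the LV was taken. The mutant group is a germline knock-in, so every cell type of the heart carries 1 mutated copy of *Lztr1*, whose product targets RAS proteins for degradation. The question addressed was whether the feedback inhibitors of the RAS pathway differ in mRNA level between the genotypes, and in what proportions the paralogs are present.

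The guide RNA that made the R409C allele is shown because it defines the groups compared. It matches coding exon 11 of *Lztr1* at chr16:17339378-17339400 of GRCm39 (plus strand), and the capitals mark the protospacer-adjacent motif. The site was located with the guide as the study lists it, less its last base, since the full string with its motif had 0 matches on the chromosome.
R409C guide site: gtagacaacaacattcgcagTGG

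Sprouty proteins are made in response to growth factor signaling, move to the plasma membrane, and restrain the step from receptor tyrosine kinases to RAS and ERK. Spred proteins carry an EVH1 domain at the amino end and bring neurofibromin, the RAS GTPase-activating protein encoded by *Nf1*, to the membrane. Both families share a cysteine-rich Sprouty domain at the carboxy end. Transcription of several of these genes is itself raised by ERK, which closes a negative feedback loop, and inherited loss of human SPRED1 or SPRED2 function causes disorders of the same group as Noonan syndrome.

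Total counts ranged from 66130887 to 72641124 per mouse. Levels are given in CPM, which divides the counts of a gene by the total of its library after a TMM factor has brought the libraries to a common scale. The smallest level taken as detected, 3 counts, lay between 0.0317 and 0.0541 CPM. The mitochondrial genome supplied 13.85% of counts for WT replicate 3, 45.4% for mutant replicate 1, and between 29.7% and 37.3% for the other 4 mice. *Lztr1* itself was measured at 24.2, 24.2, and 22.2 CPM in WT and at 23.9, 27.9, and 25.4 CPM in mutant mice. The groups overlapped, and a single-base allele cannot be checked from this level. Summed cardiomyocyte markers such as *Myh6* and *Tnnt2* were lowest in mutant replicate 1, at 23035 CPM, and lay between 31725 and 39019 CPM in the other mice. The 4 adipocyte markers summed to at most 0.249 CPM.

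Of the 6 members, 0 passed a false discovery rate of 0.05 between the genotypes (edgeR, Benjamini-Hochberg adjustment over all tested genes), where 0.0407% of all tested genes passed. In direction, 4 of the 6 had a log2 fold change above 0, as did 51.4% of all tested genes, and with library size only 3 of the 6 did, beside 34.5% of all tested genes. At an unadjusted p under 0.05, 2 of the 6 members, *Spry4* and *Spred3*, were higher in *Lztr1* R409C/+ mice and 0 were lower, where 5.77% of all tested genes were higher and 2.86% lower (8.63% in either direction). With library size only, 0 of the 6 had such a p, beside 388 higher among the 17212 genes tested, and with a gene length correction *Spred3* alone did, beside 704 higher and 709 lower. *Spry1* and *Spred3* were higher in every mutant mouse than in every WT mouse, a pattern that 8.3% of all tested genes showed in this direction, 7.23% in the opposite one, and 15.5% in either. Under scaling by library size only, the 1 member with this separation was *Spred3*, beside 3.62% of all tested genes that were higher without overlap. DESeq2's Wald test also called 0 of the 6 members, beside 150 of all genes.

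**Figure D1:**
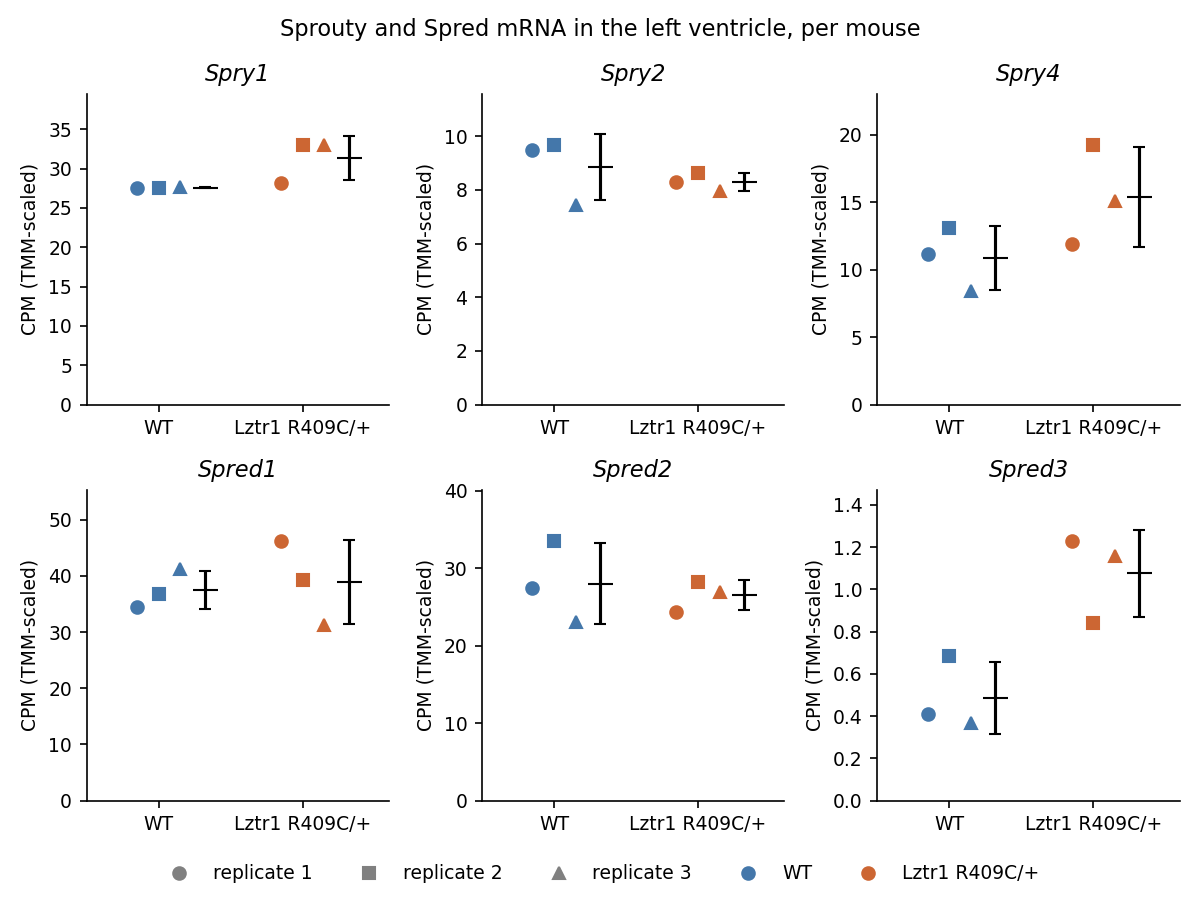
Levels of the 6 members in TMM-scaled CPM (y axis of each panel, starting at 0) by genotype (x axis), with 1 point per mouse and the mean ± SD of 3 mice beside the points. The mutant points lie wholly above the WT points for Spry1 and Spred3, and the groups overlap for the other 4 genes.

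Among the Sprouty genes, *Spry1* (ENSMUSG00000037211.13, chr3:37693897-37698755, plus strand, GRCm39) encodes the paralog with the highest level in these LVs. Its level was 27.5, 27.5, and 27.7 CPM in WT and 28.1, 33.0, and 33.0 CPM in mutant mice, here and below in the order of replicates 1, 2, and 3. The mutant mice lay above the WT mice, although mutant replicate 1 exceeded the highest WT mouse by little, and the coefficient of variation was 0.344% in WT and 8.9% in mutant mice. The log2 fold change was 0.18 (standard error 0.15, 95% interval -0.14 to 0.51) and the adjusted p was 0.773 (edgeR). The exact permutation test of 3 mice against 3 gave p = 0.1 (two-sided), the smallest that this design allows. With library size only, the log2 fold change was 0.04.

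*Spry2* (ENSMUSG00000022114.6, chr14:106128766-106136446, minus strand), whose product binds the ubiquitin ligase CBL, was measured at 9.47, 9.66, and 7.43 CPM in WT and at 8.30, 8.62, and 7.98 CPM in mutant mice, in replicate order. All 3 mutant mice lay within the WT range. The log2 fold change was -0.09 (standard error 0.18, 95% interval -0.50 to 0.31, edgeR, adjusted p = 0.923). The interval corresponds to a fold change between 0.709 and 1.24.

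*Spry4* (ENSMUSG00000024427.8, chr18:38719300-38736025, minus strand), whose product is an inhibitor of ERK activation, was 1.42-fold higher in the mutant group by the edgeR fit. The levels behind this value were 11.1, 13.1, and 8.40 CPM in WT and 11.9, 19.2, and 15.1 CPM in mutant mice. Mutant replicates 2 and 3 lay above every WT mouse, and mutant replicate 1 lay between WT replicates 1 and 2. The 95% interval of the log2 fold change of 0.50 ran from 0.02 to 0.98 (standard error 0.22). In edgeR the p-value was 0.0421 before adjustment and 0.564 after it. The unadjusted p was under 0.05 in 10 of 16 alternative fits and at most 0.231 in the others, and it was 0.231 without mutant replicate 2, where the log2 fold change was 0.30.

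Among the Spred genes, *Spred1* (ENSMUSG00000027351.15, chr2:116951524-117018277, plus strand), the paralog altered in Legius syndrome, stood at 34.5, 36.8, and 41.2 CPM in WT and at 46.1, 39.3, and 31.3 CPM in mutant mice. The mutant group held both the highest and the lowest of the 6 values, and its coefficient of variation was 19.2% against 9.06% in WT. The log2 fold change of 0.05 (standard error 0.17, 95% interval -0.32 to 0.43, edgeR, adjusted p = 0.958) changed direction with library size only, to -0.16. *Spred2* (ENSMUSG00000045671.18, chr11:19874355-19974442, plus strand) was measured at 27.5, 33.5, and 23.1 CPM in WT and at 24.4, 28.2, and 27.0 CPM in mutant mice. Here all mutant values fell between the lowest and the highest WT mouse. Its log2 fold change was -0.08 (standard error 0.17, 95% interval -0.45 to 0.29, edgeR, adjusted p = 0.93).

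*Spred3* (ENSMUSG00000037239.9, chr7:28857984-28869836, minus strand), a Spred paralog best known from brain, had the largest fold change of the 6 members and by far the fewest counts. Its counts were 27, 44, and 35 for WT and 68, 60, and 84 for mutant mice, which correspond to 0.409, 0.684, and 0.369 CPM and to 1.23, 0.839, and 1.16 CPM. Every mutant mouse lay above every WT mouse in both counts and CPM. Summed over 3 mice, the counts were 106 in WT (95% exact Poisson interval 86.8 to 128.2) and 212 in mutant mice (184.4 to 242.5), intervals that cover counting error only. The log2 fold change was 1.14 (standard error 0.43, 95% interval 0.20 to 2.09), a fold change of 2.21. The p-value from edgeR was 0.0215 before adjustment and 0.499 after it. The exact permutation test on CPM gave p = 0.1 (two-sided, the smallest possible). Fits that omitted 1 mouse gave values between 0.97 and 1.46. With library size only it was 1.03. Over all 16 alternatives, the unadjusted p was under 0.05 in 11 and at most 0.0722 in the rest.

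The gene model of *Spred3* overlaps by 202 bases with *Ggn*, a gene on the opposite strand that is known from testis, and by 300 bases with the lncRNA gene *Gm73445*, also on the opposite strand, which was not analysed here. Counts of *Ggn* were 11, 6, and 29 for WT and 11, 16, and 59 for mutant mice, so the groups overlapped, and its log2 fold change of 1.11 was close to the 1.14 of *Spred3*. The part of the shared stretch in either value was not tested. Whether the counting used strand is not given in the sources used here, and reads from the shared stretch cannot then be assigned to 1 of these genes. *Spry4* overlaps the antisense RNA gene *9630014M24Rik*, which had at most 16 counts in any mouse. *Spred2* shares 2004 bases with the lncRNA gene *Gm72089*, which lies on the same strand and was not analysed here. *Spry1* overlaps *Gm42922* on the opposite strand by 909 bases, with at most 18 counts in any mouse. *Spry2* overlaps the opposite-strand lncRNA genes *Gm62316* and *Gm62623*, which were not analysed. *Spred1* overlaps *Mir674* on the same strand, with at most 1 count.

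**Figure D2:**
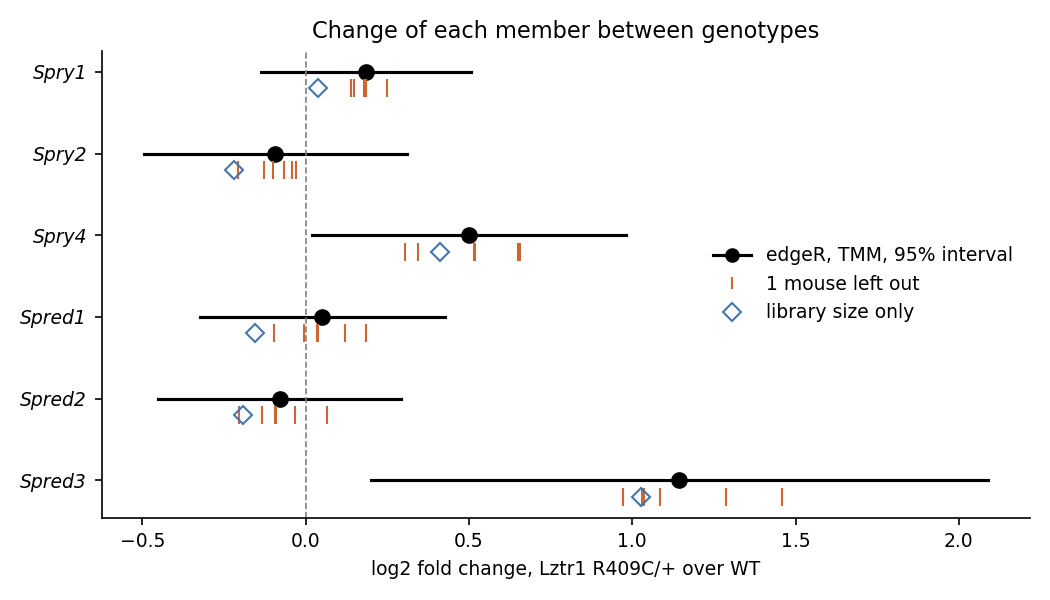
Log2 ratio of mutant to WT level (x axis) for the 6 members (y axis). Filled points and bars are edgeR estimates with 95% intervals, orange ticks the fits that each left out 1 mouse, and open diamonds the fit scaled by library size only. The intervals of Spry4 and Spred3 lie above 0 before adjustment over all genes, and those of the other 4 genes include 0.

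Bulk LV RNA holds all cell types of the ventricle, and fewer cells of a type cannot be told apart from less RNA per cell. Of 8 macrophage markers, all 8 were higher in the mutant group, 2 of them past the false discovery rate of 0.05 (edgeR). Of all tested genes, 51.4% were higher and 0.0407% passed. Their summed level ranged from 185.4 to 211.1 CPM in WT and from 319.9 to 427.0 CPM in mutant mice, and no marker was at 0. All 5 erythroid markers were also higher, 0 of them past that rate. Their summed level ranged from 578.8 to 1479 CPM in WT and from 1042 to 2625 CPM in mutant mice, with overlap. Endothelial markers ranged from 684.6 to 870.7 CPM in WT and from 590.3 to 926.0 CPM in mutant mice, and the groups also overlapped for the fibroblast, mural, cardiomyocyte, and atrial lists. The part of these cell types in the values of *Spred3*, *Spry1*, and *Spry4* was not tested.

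To compare the paralogs with each other, CPM was divided by the length of all annotated exons of each gene. Averaged over the 6 mice, *Spry1* stood first at 6.17 ± 0.569 CPM per kb (SD, n = 6). It was followed by *Spred1* at 4.92 ± 0.674, *Spred2* at 4.47 ± 0.594, *Spry4* at 1.99 ± 0.562, *Spry2* at 1.67 ± 0.168, and *Spred3* at 0.118 ± 0.0552 CPM per kb. *Spry1* was thus at the 82.3 percentile of all tested genes per length, *Spry2* at the 53.8 percentile, and *Spred3* at the 11.4 percentile.

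The order fell into steps. *Spry1* exceeded *Spred1* in 5 of 6 mice, by a ratio of 1.26 on average and 0.992 to 1.71 across mice (exact sign-flip test, two-sided, p = 0.0625, adjusted p = 0.104 over 5 neighbor pairs). *Spred1* and *Spred2* did not differ beyond their spread, with *Spred1* above in 3 of 6 mice (ratio 0.863 to 1.49, exact sign-flip test, p = 0.4375). *Spred2* was above *Spry4* in 6 of 6 mice, by 1.59 to 2.98 times. *Spry2* was above *Spred3* in 6 of 6 mice, by 8.67 to 29.7 times. For these last pairs the exact sign-flip test gave p = 0.03125 each, the smallest that 6 mice allow, and an adjusted p of 0.0781. *Spry4* and *Spry2* did not differ beyond their spread (ratio 0.882 to 1.74, *Spry4* above in 4 of 6 mice, exact sign-flip test, p = 0.3125). With the longest transcript in place of all exons, *Spry2* stood above *Spry4*. The order of the group means was not the same in both genotypes. *Spry2* was at 1.72 and *Spry4* at 1.65 CPM per kb on average in WT mice, and at 1.61 and 2.33 CPM per kb in mutant mice. The order within each genotype was not tested. Between the genotypes, the ratio of *Spry2* to *Spry4* counts had an adjusted p of 0.25 (exact permutation test, adjusted over 15 ratios).

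**Figure D3:**
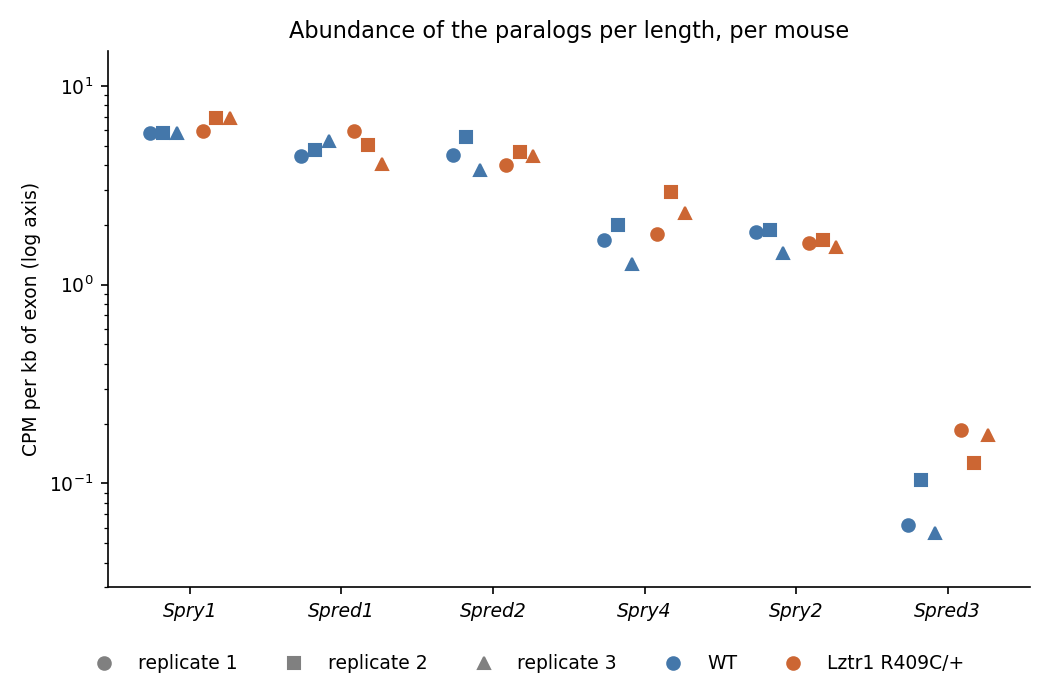
Level of each paralog in CPM per kb of exon (y axis, log scale) in order of its mean over all mice (x axis), with 1 point per mouse, color for genotype, and shape for replicate number. Spry1, Spred1, and Spred2 form an upper group, Spry4 and Spry2 a middle group, and Spred3 lies below 0.2 CPM per kb in every mouse.

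As shares of the summed level of all 6 genes, *Spry1* made up 31.1% ± 2.03 in WT and 32.8% ± 2.69 in mutant mice (SD, n = 3 in each group). *Spry4* made up 8.79% ± 1.42 and 11.6% ± 2.22, and *Spred3* 0.391% ± 0.111 and 0.821% ± 0.195. Only the share of *Spred3* did not overlap between the genotypes among the 6 shares (exact permutation test, two-sided, p = 0.1, the smallest possible). *Spred3* was also without overlap in CPM, as were 15.5% of all tested genes in either direction. The summed level itself was 18.3, 20.0, and 17.7 CPM per kb in WT and 19.4, 21.3, and 19.4 CPM per kb in mutant mice, with overlap (exact permutation test, two-sided, p = 0.3). The 3 Sprouty genes summed to 9.15 ± 0.57 CPM per kb in WT and 10.5 ± 1.11 in mutant mice (SD, n = 3; exact permutation test, p = 0.2). The 3 Spred genes summed to 9.50 ± 0.732 and 9.52 ± 0.792 CPM per kb (SD, n = 3; exact permutation test, p = 1.0). Sprouty and Spred transcripts were thus present in nearly equal amounts per length in WT mice, with a Sprouty share of 49.1% ± 1.48 (SD, n = 3).

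A ratio of counts within a library does not depend on how libraries are scaled to each other. Of the 15 ratios between 2 members, which share genes with each other, 6 did not overlap between the genotypes. In CPM, 15.5% of all tested genes did not overlap, and no share for ratios of other gene pairs is given here. Of the 6 member ratios without overlap, 4 had *Spred3* as 1 of the genes and the other 2 had *Spry4*. Of the 6 ratios among *Spry1*, *Spry2*, *Spred1*, and *Spred2*, 0 were free of overlap. The ratio of *Spry2* to *Spry4* was 0.852, 0.737, and 0.884 in WT and 0.700, 0.449, and 0.529 in mutant mice. The mutant ratios were thus all below the WT ratios, and *Spry4* had more counts than *Spry2* in all 6 mice. The ratio of *Spry4* to *Spred2* was 0.405, 0.391, and 0.364 in WT and 0.486, 0.681, and 0.559 in mutant mice, higher by 0.56 on the log2 scale. The ratio of *Spry2* to *Spred3* lay between 14.1 and 23.2 in WT mice and between 6.76 and 10.3 in mutant mice. Each of the 6 had an exact permutation p of 0.1, the smallest possible, and an adjusted p of 0.25 over the 15 ratios, so that none passed the threshold.

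**Figure D4:**
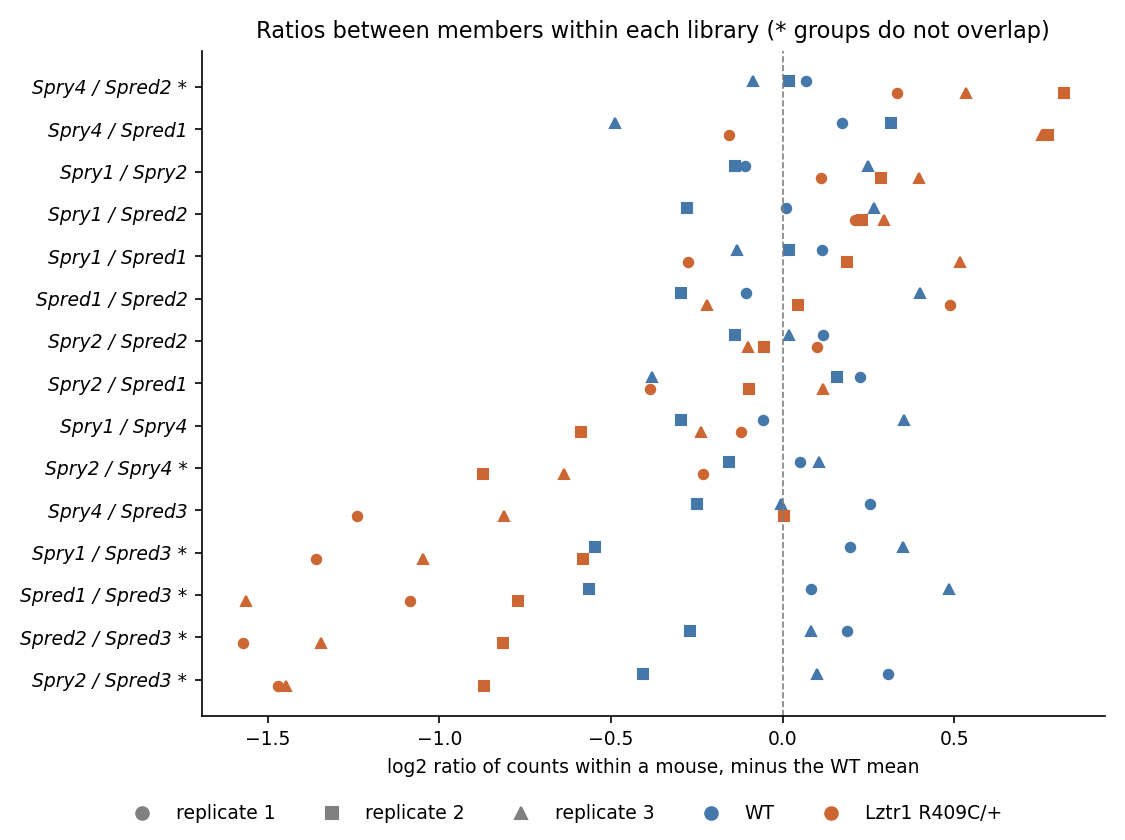
Log2 ratio of the counts of 2 members within a mouse, less the WT mean of that ratio (x axis), for all 15 pairs (y axis), with color for genotype and shape for replicate number. The 6 pairs marked with an asterisk do not overlap between the genotypes, and each of them includes Spry4 or Spred3.

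The wider pathway was described with 2 lists. The first held 25 partners of the Sprouty and Spred proteins. Of these, 8 were higher and 17 lower in mutant mice, beside 51.4% of all tested genes above 0. The median log2 fold change of the partners was -0.12, beside 0.01 over all tested genes. Of the 25, 0 passed the false discovery rate of 0.05 (edgeR), and 1 had an unadjusted p under 0.05, beside 8.63% of all tested genes. This partner was *Rhoa*, a small GTPase whose signaling Spred proteins also restrain, at 220.2 ± 31.4 CPM in WT and 166.9 ± 17.5 CPM in mutant mice (SD, n = 3; edgeR, adjusted p = 0.545). The next smallest p-values belonged to *Siah2* and *Nedd4*, which encode ubiquitin ligases that act on SPRY2, and to *Dyrk1a*, a kinase of SPRY2, with log2 fold changes of -0.35, -0.27, and -0.23. *Nf1*, the partner through which Spred proteins act on RAS, was measured at 35.8 ± 5.37 CPM in WT and 30.5 ± 5.07 CPM in mutant mice, with overlap (SD, n = 3; edgeR, adjusted p = 0.757). Under scaling by library size only, the median of all tested genes shifted to -0.14 and that of the partners to -0.28, with 4 partners higher and 21 lower, where 34.5% of all tested genes were higher. Upper quartile scaling moved both medians the other way, to 0.06 for all tested genes and -0.07 for the partners. There, 11 partners were higher and 14 lower, where 57.1% of all tested genes were higher. Under TMM scaling, 3 partners were lower without overlap and 0 higher, beside 7.23% and 8.3% of all tested genes.

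The second list held 20 other genes whose transcription depends on ERK, of which 19 were tested and *Fosl1* had too few counts. In mutant mice 16 of the 19 were higher and 3 lower, beside 51.4% of all tested genes above 0, with a median log2 fold change of 0.37. At an unadjusted p under 0.05, 6 were higher and 0 lower, beside 5.77% and 2.86% of all tested genes, and 0 passed the false discovery rate of 0.05 (edgeR). With library size only, the median was 0.23, 14 were higher and 5 lower (34.5% of all tested genes were higher), 4 were higher at an unadjusted p under 0.05 (388 of all tested genes were), and 1 passed, beside 21 of all tested genes. With a gene length correction the median was also 0.23, beside -0.04 over all tested genes, and 4 were higher at an unadjusted p under 0.05, beside 704 of all tested genes. The summed macrophage markers given above were also higher in every mutant mouse than in every WT mouse. In mutant replicates 1, 2, and 3 they summed to 427.0, 319.9, and 344.6 CPM. Among the mutant mice, replicate 1 had the highest marker sum and the lowest level of *Fos*, *Egr1*, and *Fosb*. Its level of *Spred3* was the highest, at 1.23 CPM against 0.839 and 1.16 CPM in replicates 2 and 3. The part of macrophages in the values of this list and of *Spred3* was not tested. Between the genotypes, 4 genes of the list were higher without overlap and 1, *Epha4*, lower, beside 8.3% and 7.23% of all tested genes. The 4 with the smallest p were *Fos*, *Egr1*, *Fosb*, and *Ccnd1*. The first 3 are immediate early genes with log2 fold changes of 1.91, 1.27, and 1.65, and *Ccnd1*, which encodes cyclin D1, had 0.46. *Fos* was measured at 1.01, 1.23, and 1.35 CPM in WT and at 1.48, 8.18, and 3.88 CPM in mutant mice. *Egr1* was measured at 8.22, 6.90, and 5.07 CPM in WT and at 8.25, 23.4, and 16.9 CPM in mutant mice. For both genes mutant replicate 1 lay just above the highest WT mouse, as it did for *Fosb* (0.578 against 0.528 CPM), while mutant replicates 2 and 3 lay far above it. *Ccnd1* was measured at 66.3 ± 7.59 CPM in WT and 91.4 ± 9.69 CPM in mutant mice without overlap (SD, n = 3; edgeR, adjusted p = 0.456). *Spry4*, at 0.50, and *Spred3*, at 1.14, lay above the median of this list, and *Spry1*, *Spry2*, *Spred1*, and *Spred2* lay below it.

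**Figure D5:**
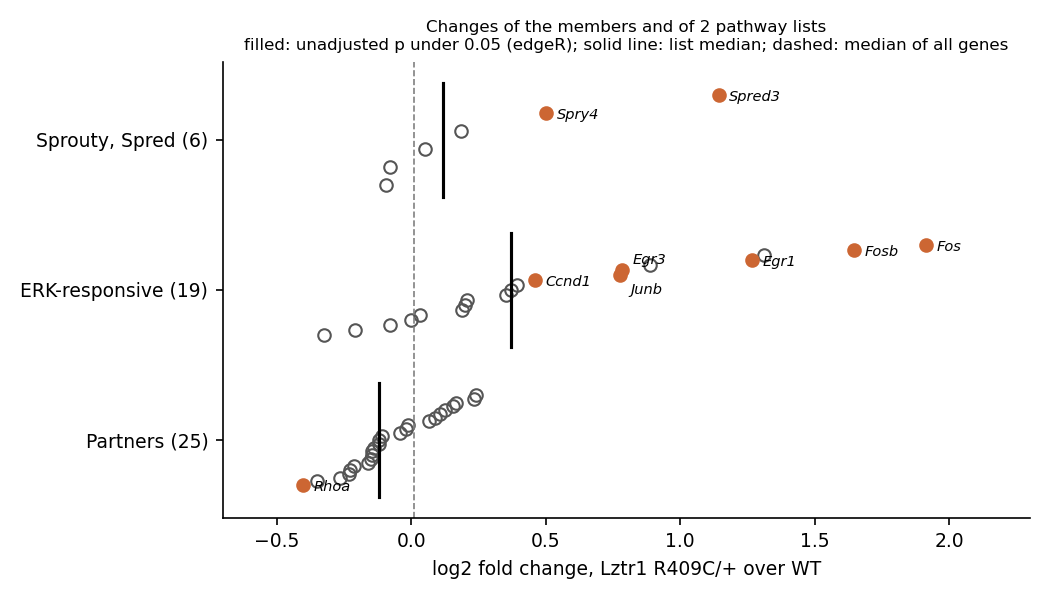
Log2 ratio of mutant to WT level from edgeR (x axis) for the members, the ERK-responsive genes, and the partners (y axis), with 1 point per tested gene. Filled points have an unadjusted p under 0.05, solid lines are list medians, and the dashed line is the median of all tested genes. The list medians are 0.12 for the members, 0.37 for the ERK-responsive genes, and -0.12 for the partners.

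The genes whose level followed each member most closely across the 6 mice were found by the root mean square difference of log2 CPM after each gene was centered on its mean. Among genes with a mean log2 CPM above 2, these included *Ankrd13a* for *Spry1* (a difference of 0.043) and *Gpalpp1* for *Spry2* (0.029). For *Spred1* they were *Nkapd1* and *Aph1b* (0.031 and 0.034), and for *Spred2* *Arhgap35* and *Eif2b3* (0.036 and 0.040). *Spry4* had its nearest genes in *Lgals9* and *Tspan18* at larger differences of 0.099 and 0.11, and *Spred3* in *Gatm* and *Rab3il1* at 0.19 and 0.21. The median difference over all genes compared was 0.25 for *Spry1* and 0.69 for *Spred3*, so that these distances describe likeness relative to how much each member itself varied, and they rest on 6 mice only.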

How the data were processed

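Counts per gene were deposited by the authors as whole numbers without normalization, 1 column per mouse. Per the labels and the methods of the study, reads were processed with Trim Galore, HISAT2, and StringTie on GRCm39, and rRNA was excluded. Versions, annotation release, and strand setting are not given in the sources used here. A second deposited table holds the edgeR comparison of the authors (fold changes and p-values), of which only gene names were used. Genes were filtered with filterByExpr, scaled by TMM, and tested with the robust quasi-likelihood test of edgeR 4.0.16 in R 4.3.3, two-sided, with Benjamini-Hochberg adjustment over 17212 genes at 0.05. Positions and exon lengths came from GENCODE M39, in which 56236 of the 56923 identifiers were found. Single values were compared with exact tests in SciPy 1.17.1. The fits of edgeR and DESeq2 were tested on simulated counts, and the other steps were not.

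Alternatives were other scalings, DESeq2 1.42.0, the exact test of edgeR, other filters, other lengths, a replicate block, and omission of each mouse. A gene length correction, upper quartile scaling of the partner and ERK-responsive lists, and the overlap of the groups under other settings were added after seeing the data. The members and lists were chosen with earlier results of these data known. Genes named besides the members were *Lztr1*, *Spry3*, *Nf1*, the 4 smallest p-values of each list, and the 2 nearest genes of each member. For *Spry1* and *Spry2*, 1 of the 2 is not reported here. *Myh6* and *Tnnt2* were named as examples of their marker list, and *Fosl1*, *Epha4*, *Ggn*, and *9630014M24Rik* after their values were seen. *Gm73445*, *Gm72089*, *Gm42922*, *Gm62316*, *Gm62623*, and *Mir674* were named for their position. Separate mice are the replicates. No batch is given in the labels.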

Additional observations from a re-analysis of the deposited data

How the results depend on the processing

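In all 17 alternatives, 0 of the 6 members passed the threshold. *Spry1*, *Spry2*, *Spry4*, and *Spred3* kept their direction in all 16 alternative fits, with log2 fold changes of 0.04 to 0.25, -0.22 to -0.03, 0.30 to 0.66, and 0.97 to 1.46. *Spred1* reversed with library size only (-0.16), without WT replicate 1 (-0.0058), and without *Lztr1* R409C/+ replicate 1 (-0.10), and *Spred2* without WT replicate 2 (0.066). With 1 mouse left out, *Spred1* ranged from -0.10 to 0.19 and *Spred2* from -0.20 to 0.066. The cause was not tested. Against 7 genes called in all, 150 were called with the DESeq2 Wald test, 140 with the exact test of edgeR, 21 with library size only, 20 without a filter, 16 at a false discovery rate of 0.1, 2 with the gene length correction, and between 2 and 4 with 1 mouse left out. With the replicate number as a block, 1 gene was called, but same-numbered mice did not deviate together (r = -0.0013, 0.0215, and -0.0573), so the numbers do not pair the mice. In same-numbered pairs, 9 of 15 member ratios had 1 sign throughout, and with 1 mouse left out between 6 and 9 ratios were free of overlap. These ratios share genes, and with 1 mouse left out between 23.3% and 26.9% of all tested genes did not overlap in CPM. Members without overlap were 1 with library size only, beside 8.37% of all tested genes. Without WT replicate 2 or mutant replicate 1 they were 3 (*Spry4* added, higher in mutant mice), beside 23.3% and 26.2% of all tested genes. Without WT replicate 3 they were also 3 (*Spry2* added, lower in mutant mice), beside 26.9%. With all mice, 15.5% of all tested genes did not overlap. With coding length, the share of *Spry4* moved to 13.7% and that of *Spred2* to 19.8%. Of the partners, 0 with library size only and 2 with the gene length correction had an unadjusted p under 0.05. Among all tested genes, 388 were higher and 301 lower at that p with library size only. With the gene length correction, 704 were higher and 709 lower.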
